A study of Mus musculus with 2 samples.

Results

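Atp13a3, Adgrg6, Nrg1, Gja5, Npr3, Fbln2, Ly6a and Sdc1 are 8 genes that were expressed by the endothelial cells (ECs) around the portal vein of the mouse liver and that had been picked as lower over all ECs in fibrosis. The levels of 7 of them were lower there beyond counting error, and that of Fbln2 was at 0.971 times normal (0.916 to 1.03). They were taken by name, as 8 of the 21722 genes listed in either of 2 single-cell libraries, and all 8 were listed in both. They had been put together because of their levels in these same libraries, so every difference between normal and fibrotic liver given for them here is a description and was not tested. The normal library came from 1 male C57BL/6 mouse, 8 weeks old at the start, that received olive oil intraperitoneally for 6 weeks at 2 injections per week. The fibrosis library came from 1 male C57BL/6 mouse of the same age that received CCl4 on the same schedule. Each liver was digested with collagenase, and hepatocytes were spun out at low speed. The non-parenchymal cells (NPCs) were then collected from layers of a density gradient, so shares of cells below are shares of recovered cells. With 1 mouse per condition, a difference between conditions cannot be told apart from a difference between 2 animals, and every interval below is a 95% interval for counting error only. After filtering, the normal library held 7471 cells with a median of 4226 unique molecular identifiers (UMIs, the number of RNA molecules counted) per cell, and the fibrosis library held 6132 cells with a median of 5775.5. The 2 libraries shared 15 cell barcodes.

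Blood enters the liver lobule through the portal vein and the hepatic artery, runs through sinusoids lined by fenestrated liver sinusoidal ECs (LSECs), and leaves at the central vein. The ECs of the portal vessels have a continuous lining with elastic matrix beneath it and carry genes of large vessels, whereas LSECs carry scavenger receptors such as Stab2, and sinusoidal cells next to the portal tract share part of the portal program. In CCl4 injury the sinusoidal lining is known to lose fenestrae and to gain features of ordinary capillaries. The 8 genes cover several functions of a vessel wall: a growth factor (Nrg1), receptors (Adgrg6, Npr3), a gap junction channel (Gja5), a membrane transporter (Atp13a3), matrix and glycocalyx (Fbln2, Sdc1) and a surface antigen (Ly6a).

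A lower level over all ECs can come from fewer portal cells among the ECs or from less RNA of these genes within each portal cell, so ECs were divided into zones with the 8 genes left out of both the clustering and the naming. Portal vessel-like cells were the sub-cluster with the highest levels of 13 portal vessel markers (among them Sox17, Eln, Mgp and Gja4), all 13 of which were raised in it in both libraries. They numbered 87 of 2241 ECs in the normal library, or 3.88% (3.12 to 4.77), and 61 of 1662 ECs in the fibrosis library, or 3.67% (2.82 to 4.69; exact binomial intervals). A neighbouring sub-cluster carried zone 1 markers together with a part of the portal markers and is called portal-side zone 1-like, with 304 cells (13.6%, 12.2 to 15.05) among normal ECs and 155 cells (9.33%, 7.97 to 10.8) among those of the fibrosis library. Zone 1-like, zone 2/3-like and central vein-like cells made up most of the other named cells, and 769 normal and 811 fibrosis ECs had no zone name. Cells of other types were named by their markers too, so that B cells below means B cell-like cells, and likewise for the rest. The pan-endothelial genes Pecam1 and Cdh5 were at 11.8 and 10.1 UMIs per 10000 UMIs in normal portal vessel-like cells and at 11.2 and 9.10 in those of the fibrosis library. Vwf, a gene of large vessels, was at 12.5 and 10.4, and the central vein gene Rspo3 was at 0.0310 and 0.0991, against 36.8 and 20.2 in central vein-like cells. These shares do not compare like with like, because several naming genes themselves differed between the libraries within portal vessel-like cells. Mgp was at 0.192 times and Bmx at 0.324 times its normal level there, while Sox17 was at 1.77 times and Gja4 at 1.40 times. Portal-side zone 1-like cells differed more. Their Stab2 level was 2.17 per 10000 in normal and 5.92 in fibrotic liver, their Clec4g level 7.63 and 15.6, and their Vwf level 3.47 and 1.37, so the group under this name held cells with more sinusoidal and less large-vessel RNA in fibrosis.

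**Figure D1:**
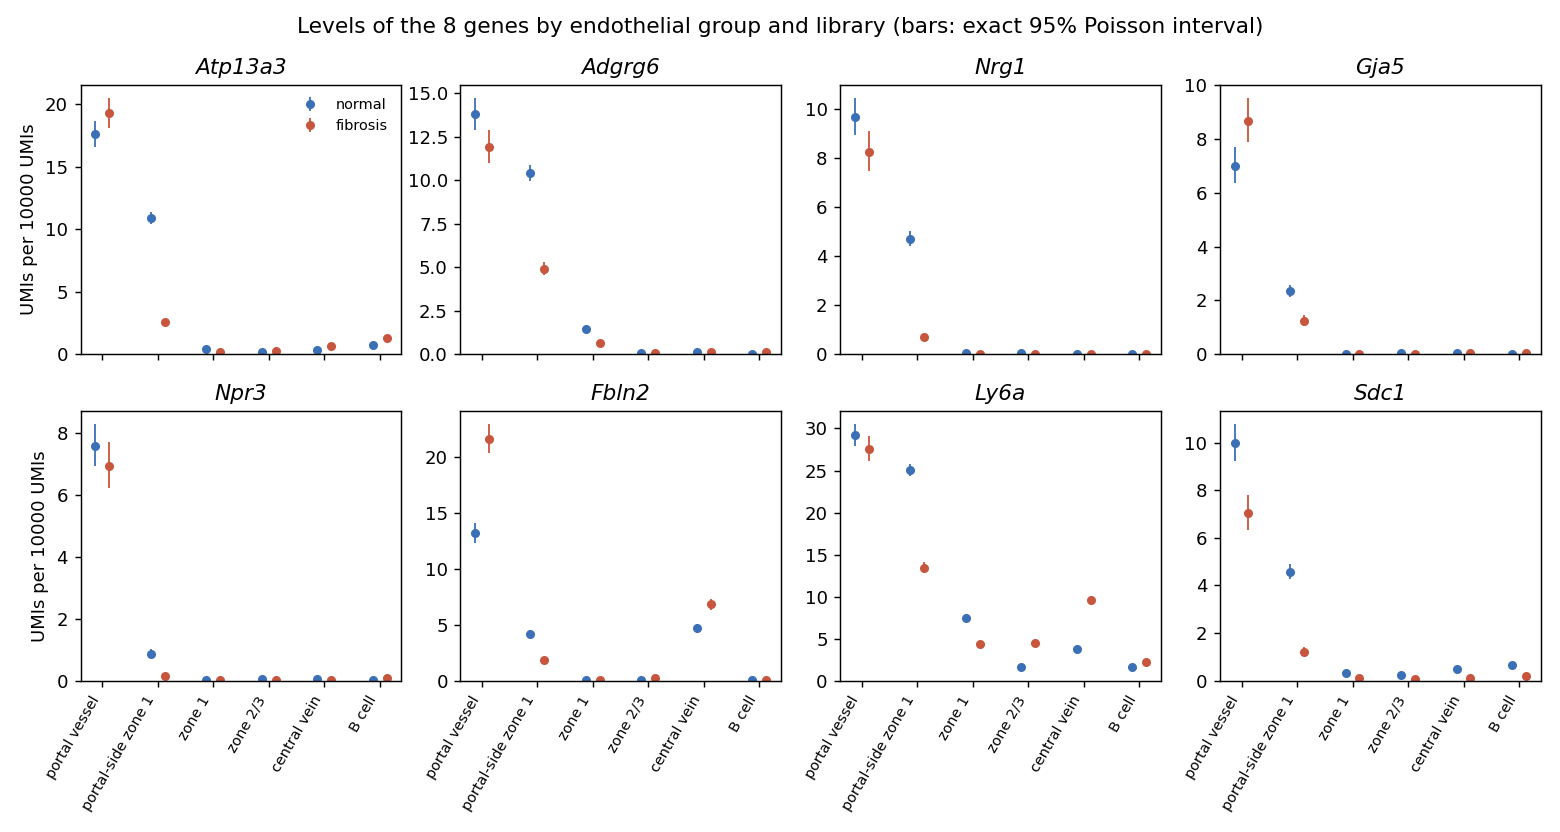
Each panel plots the level of 1 gene, in UMIs per 10000 UMIs of the group, in 5 endothelial groups and in B cells, for the normal and the fibrosis library; bars are exact 95% Poisson intervals and each group is 1 library. All 8 genes were highest in portal vessel-like cells of both libraries, and in portal-side zone 1-like cells each was lower in the fibrosis library, for example 10.9 against 2.54 for Atp13a3.

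Portal vessel-like cells of the fibrosis library held the 8 genes at about the normal summed level, where the group was drawn as above. The sum was 108 UMIs per 10000 (106 to 111) in normal cells against 111 (108 to 114) in fibrosis, and the ratio of fibrosis over normal was 1.03 (0.994 to 1.07). The ratio was 0.680 when a shallow sub-cluster of the fibrosis library, described below, was counted as portal, and 0.677 when both portal groups were joined. Behind the sum, Fbln2, Gja5 and Atp13a3 were higher in the fibrosis library, Sdc1, Nrg1 and Adgrg6 were lower, and the intervals of the ratio for Npr3 and Ly6a included 1. Of the 4139 genes with at least 0.5 UMIs per 10000 in these cells, 19.4% were higher and 13.3% lower beyond counting error in the same way. None of the 8 was lower by 2 times or more, beside 4.49% of these 4139 genes. The median log2 ratio was −0.11 over the 8 genes and 0.08 over all genes in the count. Portal vessel-like cells of the fibrosis library held more UMIs each. Counted as UMIs per cell, their sum was at 1.15 times normal (1.11 to 1.19). On that scale the intervals for Adgrg6 (0.963, 0.867 to 1.07) and Nrg1 (0.952, 0.839 to 1.08) included 1, while Sdc1 was still lower (0.787, 0.690 to 0.898).

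In portal-side zone 1-like cells, by contrast, all 8 genes were lower in the fibrosis library, beside 20.3% of 4147 genes that were lower and 28.5% that were higher beyond counting error. Their sum was 63.0 (61.8 to 64.1) in normal liver and 26.0 (25.1 to 26.9) in fibrosis, which gave a ratio of 0.413 (0.397 to 0.429). Atp13a3, Adgrg6, Nrg1, Npr3, Fbln2 and Sdc1, 6 of the 8, were lower by 2 times or more, beside 4.53% of these genes. The median log2 ratio was −1.56 over the 8 genes and 0.05 over all genes in the count. Counted as UMIs per cell, all 8 were still lower beyond counting error. Adgrg6 (0.618) and Fbln2 (0.566) were then no longer lower by 2 times. Over all ECs together the sum was 18.3 (18.0 to 18.5) and 11.7 (11.5 to 11.9), a ratio of 0.641 (0.628 to 0.654). Atp13a3, Adgrg6, Nrg1 and Sdc1, 4 of the 7 genes over the minimum level, were lower by 2 times or more there, beside 3.39% of 4159 genes, and 6 of the 7 were lower beyond counting error, beside 27.9% of all genes lower and 47.5% higher. These are the values on which the genes had been chosen, so nothing is read from that count. Since the genes were picked as lowered, the counts within zones are not independent of the choice either.

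**Figure D2:**
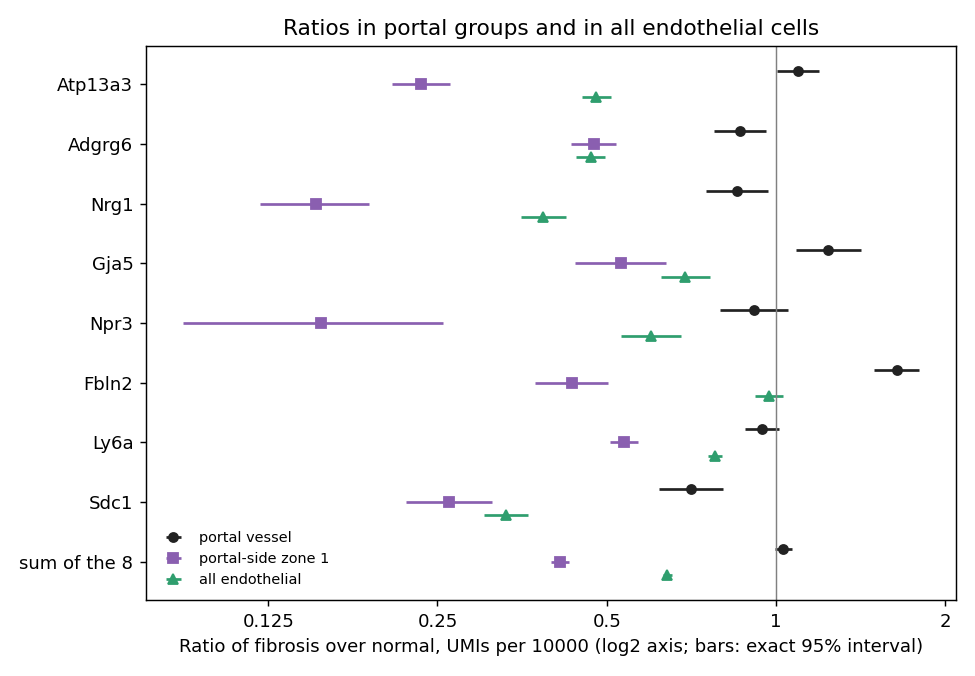
Points are ratios of the fibrosis over the normal level (UMIs per 10000, log2 axis) for each gene and for the sum of the 8, in portal vessel-like cells, portal-side zone 1-like cells and all ECs; bars are exact 95% intervals and the grey line marks a ratio of 1. In portal vessel-like cells the ratios lie between 0.706 and 1.64 on both sides of 1, and in portal-side zone 1-like cells all 8 lie between 0.152 and 0.536.

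Nrg1 (chromosome 8, 31814551 to 32884029, minus strand; all positions are on GRCm38) encodes neuregulin 1, a growth factor that binds ErbB receptors on neighbouring cells. It was at 9.66 UMIs per 10000 (8.92 to 10.5) in normal and 8.25 (7.47 to 9.08) in fibrosis portal vessel-like cells, a ratio of 0.853 (0.752 to 0.968). It was at 4.70 (4.39 to 5.01) and 0.713 (0.573 to 0.876) in portal-side zone 1-like cells, a ratio of 0.152 (0.121 to 0.189), the lowest of the 8. In the other named zones Nrg1 was low, with 11, 16 and 0 UMIs in normal zone 1-like, zone 2/3-like and central vein-like cells and 8, 1 and 3 UMIs in those of the fibrosis library. Portal vessel-like cells held 40.2% of its normal and 65.4% of its fibrosis UMIs over all ECs, and portal-side zone 1-like cells 57.5% and 14.2%. Fibrosis ECs without a zone name held another 17.3% (110 UMIs). Of these, 106 lay in the shallow sub-cluster described below, where Nrg1 was at 3.02 (2.47 to 3.65), above its fibrosis portal-side level. Of its receptor genes, Erbb2 was at 0.326 and 0.357 per 10000 in portal vessel-like cells, with intervals that overlapped, and Erbb3 had 3 and 0 UMIs. Egfr, which hepatocytes express strongly, had 22 and 1 UMIs, in cells whose hepatocyte RNA also differed (values beside Sdc1). Hbegf, a ligand of the same receptor family, was higher in the fibrosis library, at 0.977 and 1.67, a ratio of 1.70 (1.22 to 2.40).

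Adgrg6 (chromosome 10, 14402583 to 14545659, minus strand) encodes an adhesion G protein-coupled receptor best known for its part in myelination by Schwann cells. It was at 13.8 (12.9 to 14.7) and 11.9 (10.98 to 12.9) in portal vessel-like cells, a ratio of 0.863 (0.777 to 0.958). The portal-side zone 1-like cells held it at 10.4 (9.93 to 10.9) and 4.93 (4.55 to 5.33), a ratio of 0.474 (0.433 to 0.519). Its order across the 5 zones named in both libraries was the same in each: portal vessel-like, portal-side zone 1-like, zone 1-like, and then central vein-like and zone 2/3-like cells, whose intervals overlapped. In zone 1-like cells Adgrg6 was at 1.47 (1.29 to 1.67) and 0.631 (0.538 to 0.736), a ratio of 0.429 (0.349 to 0.527). Beside Ly6a, Adgrg6 was the 1 gene of the 8 above the minimum level in zone 1-like cells, and it was lower in the fibrosis library there and in both portal groups. The related receptor gene Adgrg1 was at 1.45 times its normal level in portal vessel-like cells, and Adgre5 at 0.743 times.

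Npr3 (chromosome 15, 11839896 to 11907287, minus strand) encodes the natriuretic peptide clearance receptor, which removes these vasoactive peptides. It marked portal vessel-like cells most narrowly, since 71.3% of its normal and 80.1% of its fibrosis UMIs over all ECs came from them. There it was at 7.59 (6.93 to 8.29) and 6.94 (6.23 to 7.71), a ratio of 0.915 (0.795 to 1.05). Among portal-side zone 1-like cells it was at 0.869 (0.741 to 1.01) and 0.135 (0.0784 to 0.216), a ratio of 0.155 (0.0882 to 0.256) that rests on 165 and 17 UMIs. The 3 cells richest in it held 27.9% and 47.1% of those UMIs. In zone 1-like, zone 2/3-like and central vein-like cells it had between 2 and 17 UMIs in either library. Fibrosis ECs without a zone name held 55 UMIs of Npr3, 34 of them in the shallow sub-cluster at 0.969 (0.671 to 1.35), above the fibrosis portal-side level. The ratio of Npr3 in portal vessel-like cells moved with the border of that group, from 0.592 with the shallow sub-cluster to 1.661 with coarser clusters. The signalling receptor gene Npr1 was at 4.76 and 3.95 in portal vessel-like cells, a ratio of 0.829 (0.690 to 0.994).

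Gja5 (chromosome 3, 96904693 to 97077416, plus strand) encodes connexin 40, a gap junction protein of arterial endothelium and the atria of the heart. It was higher in the fibrosis library within portal vessel-like cells, at 7.01 (6.38 to 7.69) and 8.68 (7.89 to 9.54), a ratio of 1.24 (1.08 to 1.42) that fell to 0.820 with the shallow sub-cluster counted as portal and to 0.955 with both portal groups joined. It was lower in portal-side zone 1-like cells, at 2.34 (2.13 to 2.57) and 1.24 (1.06 to 1.45), a ratio of 0.531 (0.440 to 0.638). It had 2 to 14 UMIs in each of the zone 1-like, zone 2/3-like and central vein-like groups, and 65 in fibrosis ECs without a zone name, of which 54 lay in the shallow sub-cluster at 1.54 (1.16 to 2.01). Of the other gap junction genes in portal vessel-like cells, Gja4, which was also a naming gene, was at 4.70 and 6.58, and Gja1 at 0.202 and 0.753, a ratio of 3.74 (1.95 to 7.64). Gjb1, a connexin gene abundant in hepatocytes, had 16 and 0 UMIs, Gjb2 had 14 and 5 and Gjc1 3 and 1. RefSeq promoter stretches were matched for 5 of the 8 genes (Adgrg6, Gja5, Npr3, Fbln2 and Sdc1). Gja5 went in opposite directions in the 2 portal groups and is the 1 gene whose stretch overlapped no annotated exon. Its stretch, 250 bases before a RefSeq start that lies in an intron of the longest gene span (GRCm38.p6, chr3:97032152-97032401, plus strand, 56.4% G and C), is therefore printed, 5′ to 3′, with each CACCC or its reverse complement GGGTG, the core letters of KLF sites, in capitals.
Gja5: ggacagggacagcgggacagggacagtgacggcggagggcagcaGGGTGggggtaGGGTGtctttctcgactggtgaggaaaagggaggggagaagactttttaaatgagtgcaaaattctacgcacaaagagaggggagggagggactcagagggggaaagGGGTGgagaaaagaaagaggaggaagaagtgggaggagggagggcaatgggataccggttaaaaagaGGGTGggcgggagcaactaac
It held 4 such matches, and 52.0% of 32851 promoter stretches of the same length held at least 1. The core letters TGGGAA of RBPJ sites were in 21.6% of all stretches, and ACAATG of SOX sites were in 10.7%. The letters CCGGAA of ETS sites were in 3952 of all 32851 stretches, and GATAAG of GATA factor sites were in 6.55%. None of these was found on either strand in the stretches of the 5 matched genes, each of which held at least 1 CACCC. The motifs do not overlap each other, and a match is a run of letters and not a bound site.

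Atp13a3 (chromosome 16, 30312423 to 30405975, minus strand) encodes a membrane ATPase that takes part in polyamine transport. It was at 17.6 (16.6 to 18.6) and 19.3 (18.1 to 20.5) in portal vessel-like cells, a ratio of 1.10 (1.004 to 1.19). That direction turned in 6 of 13 alternatives, among them finer clusters (0.984), zones from each cell's marker UMIs (0.832) and the shallow sub-cluster counted as portal (0.732). Its portal-side zone 1-like levels were 10.9 (10.4 to 11.4) and 2.54 (2.27 to 2.84), a ratio of 0.234 (0.207 to 0.263). In zone 1-like, zone 2/3-like and central vein-like cells Atp13a3 was between 0.176 and 0.658, below its level in B cells of the same libraries (0.723 and 1.27). The 14 lymphatic-like cells of the normal library held 14 UMIs (1.45 per 10000), and the shallow sub-cluster of the fibrosis library was at 3.68 (3.07 to 4.37). Its relative Atp13a1 was at 0.465 and 0.436 in portal vessel-like cells, and the interval of that ratio included 1.

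Fbln2 (chromosome 6, 91212455 to 91272540, plus strand) encodes fibulin 2, a matrix protein of elastic fibres and basement membranes. It was the gene with the highest ratio in portal vessel-like cells, with 13.2 (12.4 to 14.2) in normal cells against 21.7 (20.4 to 23.0) in fibrosis, 1.64 times the normal level (1.496 to 1.79). In portal-side zone 1-like cells it was at 4.195 (3.91 to 4.497) and 1.82 (1.59 to 2.07), a ratio of 0.434 (0.373 to 0.503). It also marked the other end of the sinusoid. In central vein-like cells Fbln2 was at 4.69 (4.30 to 5.11) and 6.83 (6.36 to 7.32), a ratio of 1.46 (1.30 to 1.63), and in the normal library that level was not apart from the portal-side one. Over all ECs its ratio was 0.971 (0.916 to 1.03), so Fbln2 was the 1 gene of the 8 that was not lower there beyond counting error. Its relative Fbln5, a naming gene that encodes another elastic fibre protein, was at 2.84 and 1.61 in portal vessel-like cells, a ratio of 0.566 (0.430 to 0.739), and Eln, the elastin gene, at 3.51 and 1.73.

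Sdc1 (chromosome 12, 8771323 to 8793715, plus strand) encodes syndecan 1, a heparan sulfate proteoglycan of cell surfaces that is also abundant on hepatocytes and plasma cells. It had the lowest ratio of the 8 in portal vessel-like cells, with 9.98 (9.22 to 10.8) and 7.04 (6.33 to 7.81), a ratio of 0.706 (0.618 to 0.805). Sdc1 in portal-side zone 1-like cells was at 4.59 (4.29 to 4.90) and 1.20 (1.02 to 1.41), a ratio of 0.263 (0.220 to 0.312). In zone 1-like, zone 2/3-like and central vein-like cells Sdc1 lay between 0.241 and 0.486 in normal liver and between 0.0584 and 0.113 in fibrosis. B cells, which should lack it, were at 0.656 and 0.182, so the sinusoidal and central values are read as background. Hepatocyte RNA differed as well: the 13 hepatocyte markers, all 13 of them detected, summed to 136 per 10000 in normal and 15.3 in fibrosis portal vessel-like cells. The normal hepatocyte-like cells left in the NPCs carried Sdc1 at 2.58, below the portal level, and among other classes it was at 0.616 and 0.129 in NK and T cells, 0.303 and 0.1003 in Kupffer cells and 0.506 and 0.365 in erythroid cells. The part of free RNA in the lower Sdc1 level was not tested. Sdc3, another syndecan gene, was higher in the fibrosis library, at 2.11 and 4.30, a ratio of 2.04 (1.64 to 2.55), while the interval for Sdc4 included 1 (0.946 and 0.714).

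Ly6a (chromosome 15, 74994877 to 74998031, minus strand) encodes Sca-1, a lipid-anchored surface antigen of stem cells, lymphocytes and vessel endothelium. It was the least zonal of the 8, since portal vessel-like cells held 19.5% of its normal and 17.4% of its fibrosis UMIs over all ECs. In portal vessel-like cells it was at 29.2 (27.9 to 30.6) and 27.6 (26.2 to 29.1), a ratio of 0.943 (0.879 to 1.01). On the portal side of zone 1, it was at 25.01 (24.3 to 25.7) and 13.4 (12.8 to 14.1), a ratio of 0.536 (0.507 to 0.567). In zone 1-like cells Ly6a was at 7.46 (7.04 to 7.90) and 4.32 (4.07 to 4.58), and farther along the sinusoid the order of the libraries was turned round. In zone 2/3-like cells Ly6a was at 1.60 (1.48 to 1.72) and 4.501 (4.17 to 4.85), a ratio of 2.82 (2.54 to 3.14), and in central vein-like cells at 3.79 (3.44 to 4.17) and 9.54 (8.98 to 10.1), a ratio of 2.52 (2.25 to 2.82). Normal Ly6a thus stepped down from the portal vessel to zone 2/3 in levels that were apart from each other, whereas zone 1-like and zone 2/3-like cells of the fibrosis library were not apart. B cells, a lymphocyte class that can carry Ly6a itself, were at 1.65 and 2.26, and Kupffer cells were at 2.11 and 0.784, so no level common to other classes set a background for it. Ly6a belongs to a family of similar genes and its UMIs are uncertain where reads could map to more than 1 copy. Of its relatives, Ly6c1 was at 1.37 and 2.40 in portal vessel-like cells, a ratio of 1.76 (1.32 to 2.34), and Ly6e at 17.7 and 19.0.

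Across the remaining zones the genes over the minimum level had no common direction. In zone 1-like cells only Adgrg6 and Ly6a passed the minimum level, and both were lower, beside 19.3% of 4118 genes lower and 27.1% higher. Adgrg6 was lower by 2 times or more, beside 2.72%. In zone 2/3-like cells only Ly6a passed, and it was higher, beside 29.7% of 4075 genes higher, 20% lower and 3.61% lower by 2 times or more. In central vein-like cells Fbln2 and Ly6a passed and both were higher, beside 29.8% of 4147 genes higher, 17.1% lower and 4.82% lower by 2 times or more. The other members were under 0.5 UMIs per 10000 of both libraries pooled in these zones, and no direction is read from them there.

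The change over all ECs was then divided into a part from levels within groups and a part from the shares of the groups, by writing the level over all ECs as the sum over groups of the group's share of UMIs times its level. The sum of the 8 genes differed by −6.56 UMIs per 10000 (fibrosis minus normal). Levels within groups contributed −3.27 (−3.56 to −2.97) and group shares −3.29 (−3.36 to −3.22), or 49.8% and 50.2% of the change. The part within groups came from portal-side zone 1-like cells (−4.41), while portal vessel-like cells contributed 0.14 and all other groups together 1.001. The part of the shares came from both portal groups, −1.44 from portal vessel-like and −2.45 from portal-side zone 1-like cells, whose shares of all EC UMIs were 4.98% and 14.7% in normal liver and 3.67% and 9.18% in fibrosis. In normal ECs 29.5% of the summed UMIs came from portal vessel-like and 50.6% from portal-side zone 1-like cells, and in fibrosis ECs 34.9% and 20.4%.

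The genes differed in this division. For Sdc1, Nrg1, Adgrg6 and Atp13a3 the larger part lay in the levels within groups, at 74.6%, 66.9%, 65.6% and 60.03% of the change. For Gja5 and Ly6a it lay in the shares, at 87.5% and 65.5%, and the interval of the part within groups included 0 for Gja5 (−0.0276, −0.0860 to 0.0307). Npr3 was divided more evenly, with 44.7% within groups and 55.3% from shares. For Fbln2 the parts had opposite signs, 0.343 within groups and −0.394 from shares, and the change over all ECs was −0.0503. Counted as UMIs per cell instead of per 10000 UMIs, the sum over all ECs was 10.6 in normal liver and 9.70 in fibrosis, and ECs of the fibrosis library held more UMIs each. The part within groups was then 0.283 and the part of the shares −1.14, and the Ly6a and Fbln2 levels per EC were higher in the fibrosis library.

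**Figure D3:**
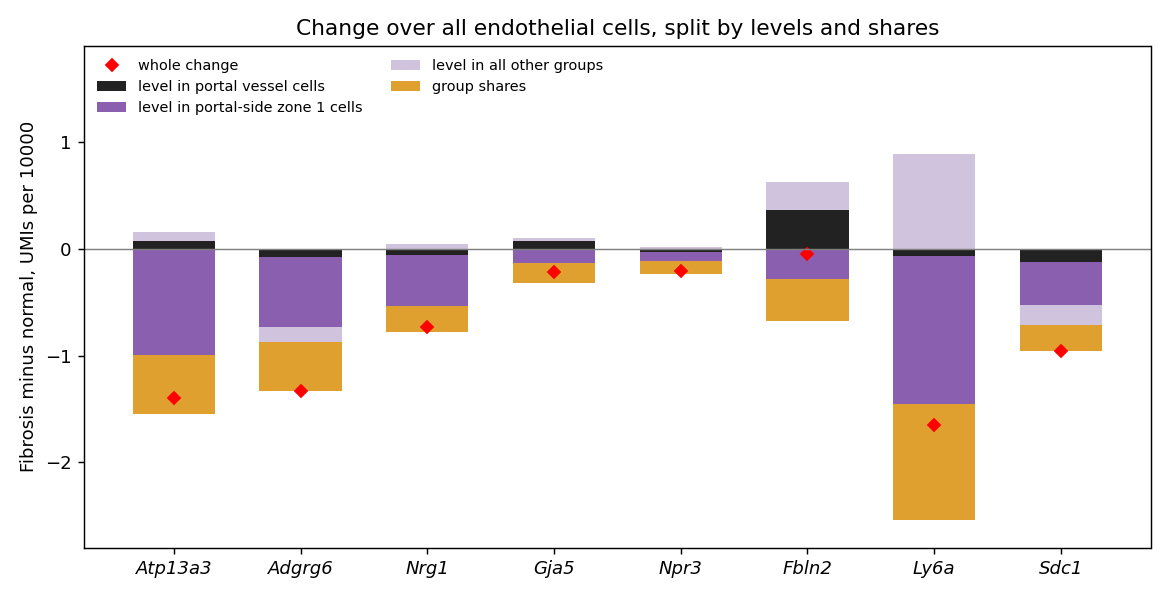
Stacked bars divide the change of each gene over all ECs (fibrosis minus normal, UMIs per 10000) into the levels within portal vessel-like, portal-side zone 1-like and all other groups and the shares of the groups; red diamonds give the whole change. The portal-side bar is below 0 for all 8 genes, the portal vessel bar is above 0 for Atp13a3, Gja5 and Fbln2, and the Ly6a change of −1.65 holds a part of 0.885 from the levels in other groups.

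This division depended on where the border of the portal vessel-like group was drawn. With coarser clusters (resolution 0.4) the portal group took 17.2% of normal and 5.90% of fibrosis ECs, the level within groups contributed 2.40 and the shares −8.96. With both libraries clustered together the portal group took 17.2% and 9.57%, and the parts were 1.12 and −7.68. With the 8 genes allowed to shape the clusters the portal group took 3.75% and 6.56%, and the parts were −5.80 and −0.758. A further sub-cluster of the fibrosis library had 149 cells with a median of 2070 UMIs and 8 of the 13 portal markers raised, and it had been left without a zone name because it was shallow against the other ECs and no portal marker was among its 10 leading genes. Its 8 genes summed to 19.2 per 10000 (17.8 to 20.7), between the 2 portal groups and the zone 1-like cells, with Stab2 at 9.21 and Alb, the hepatocyte albumin gene, at 12.7. Counted as portal it raised the fibrosis share to 12.6% and the parts became −5.66 and −0.897. In 11 of the 13 alternatives the portal group held a smaller share of fibrosis than of normal ECs, and 2 of these 11 left the groups as they were. In the division given first the share was also smaller, but the intervals of 3.88% and 3.67% overlapped. The exceptions were the clusters shaped by the 8 genes and the shallow sub-cluster counted as portal.

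**Figure D4:**
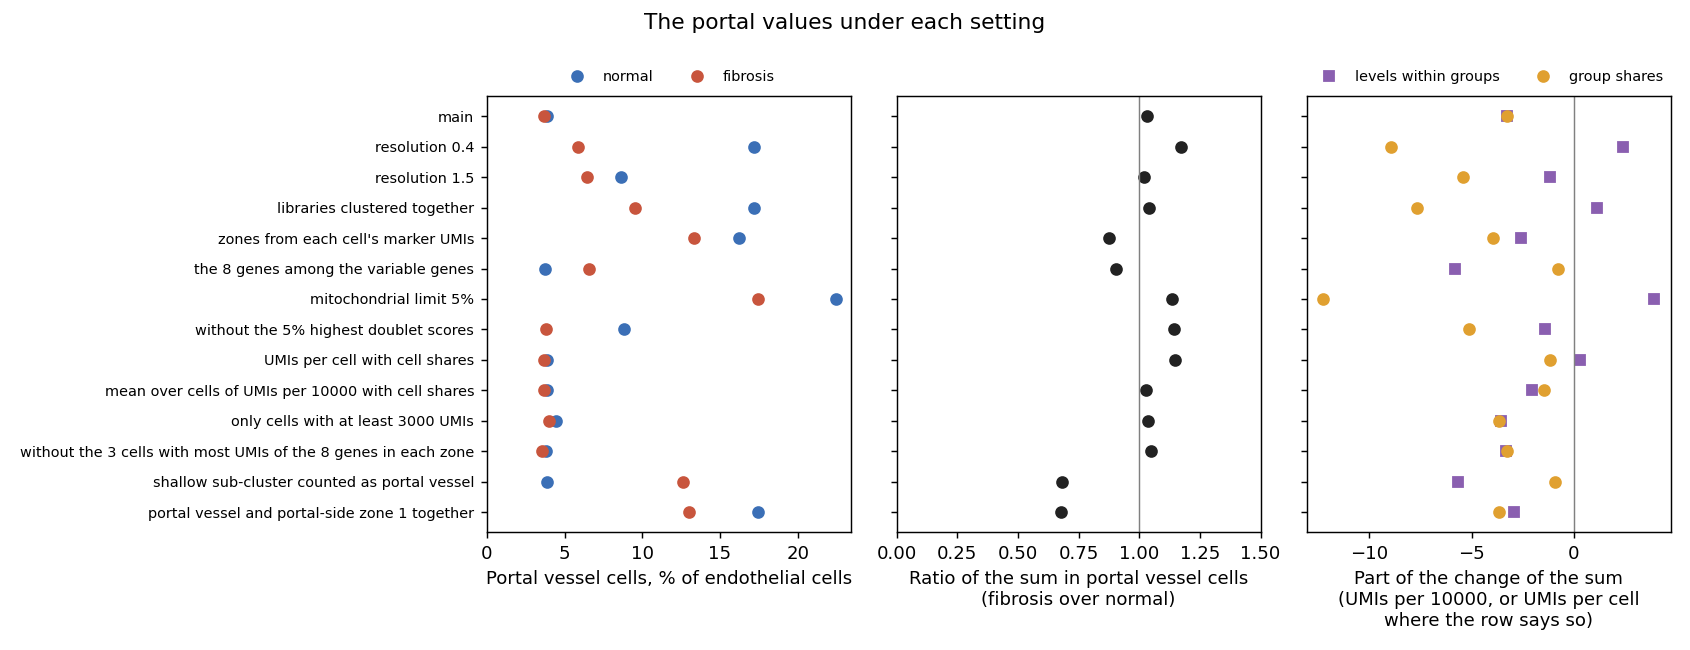
Rows are the division given first and the 13 alternatives; the left panel plots the portal vessel-like share of ECs in each library (%), the middle panel the ratio of the summed 8 genes in portal vessel-like cells, and the right panel the parts from levels within groups and from shares. The share points lie between 3.53% and 22.5%, the ratio between 0.677 and 1.17, and the part within groups between −5.80 and 3.93.

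The cells themselves were therefore also counted without a border between groups, after each EC had been thinned to 3000 UMIs so that depth was equal. For this 1953 normal and 1465 fibrosis ECs were deep enough, and 288 and 197 were left out. The shallow fibrosis sub-cluster of 149 cells had a median of 2070 UMIs, so many of its cells were left out. ECs with UMIs of at least 5 of the 8 genes made up 12.6% (247 cells, 11.2 to 14.2) of normal and 5.46% (80 cells, 4.35 to 6.75) of fibrosis ECs. These cells held 27.3 UMIs of the 8 genes each in normal liver and 30.6 in fibrosis. The 8 genes both chose and described these cells, so no level per cell is read from those values. Because the genes had been picked as lower over all ECs, a smaller share of such cells was favoured by that choice. That share is therefore not read as a result. Of these cells 83 were portal vessel-like and 161 portal-side zone 1-like in the normal library, against 56 and 19 in the fibrosis library, where another 5 had no zone name. In a second random draw of the thinning, made group by group, the median within portal vessel-like cells was 7 of the 8 genes in both libraries, and 97.7% and 91.5% of the cells had at least 5. Within portal-side zone 1-like cells the median was 5 in normal liver and 2 in fibrosis, and 56.9% and 15.2% had at least 5. B cells of either library had a median of 1 and none had 5 or more, with 399 of 598 normal and 350 of 405 fibrosis B cells too shallow to be thinned.

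A count that does not use the 8 genes gave the same order. ECs were ranked by their UMIs of 12 portal vessel markers, leaving out Gja4 because its level was higher in each endothelial zone of the fibrosis library (2.81 and 7.07 in zone 2/3-like cells, for example). ECs with 12 or more of these UMIs made up 10.96% (9.61 to 12.4) of normal and 5.46% (4.35 to 6.75) of fibrosis ECs, and they held 20.7 (20.1 to 21.3) and 24.7 (23.6 to 25.8) UMIs of the 8 genes per cell. ECs with 9 to 11 were about as frequent in both libraries (9.68% and 9.28%) and held 11.4 (10.9 to 11.9) and 5.83 (5.43 to 6.25). ECs with 6 to 8 held 4.51 (4.32 to 4.72) and 2.69 (2.52 to 2.87). ECs with 3 to 5, which made up 38.2% and 43.5%, held 1.54 (1.45 to 1.63) and 1.82 (1.72 to 1.93), and those with 0 to 2 held 1.13 (1.02 to 1.24) and 1.32 (1.19 to 1.46). Per cell, the 8 genes were higher in the fibrosis library among the cells with most portal marker UMIs and lower among cells with 6 to 11, and among cells with 3 to 5 they were slightly higher again. The 12 markers include Mgp, Bmx, Eln, Crip1 and Fbln5, which were lower in fibrosis portal vessel-like cells, and Sox17, which was higher. Cells of the same bin are therefore not alike in the 2 libraries. Neither the shares of the bins nor their levels of the 8 genes per cell can be told apart from these differences.

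**Figure D5:**
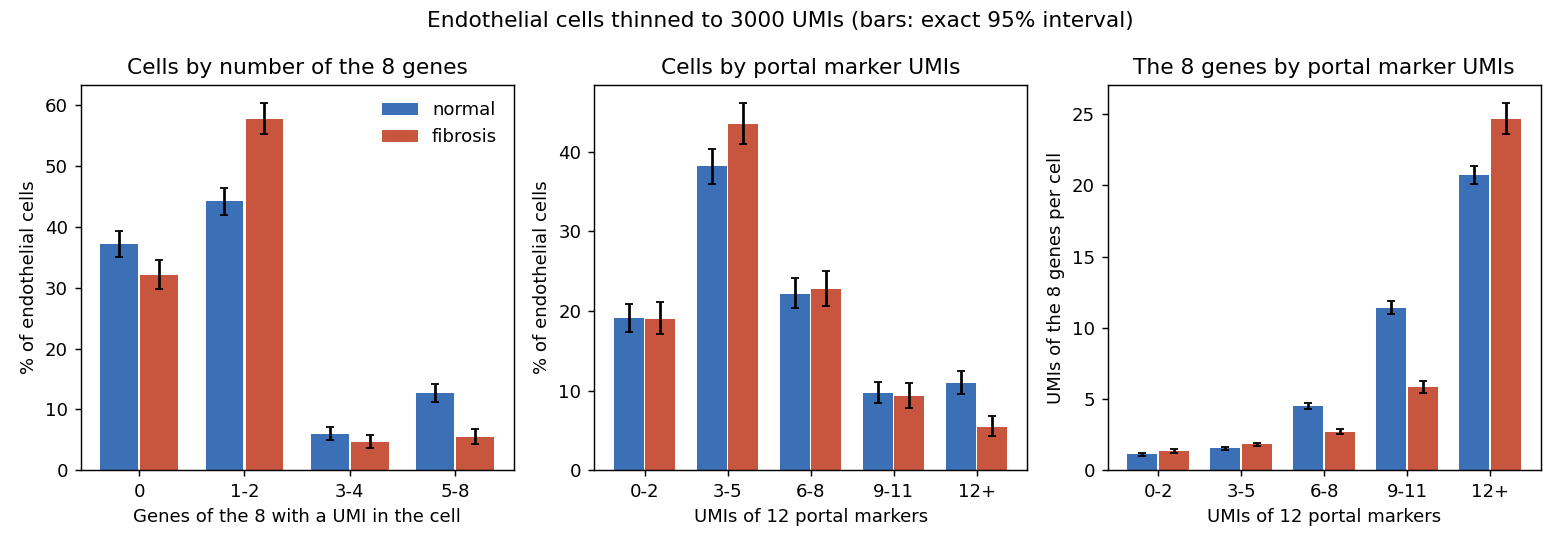
ECs thinned to 3000 UMIs are grouped by how many of the 8 genes had a UMI (left, % of ECs) and by their UMIs of 12 portal markers (middle, % of ECs; right, UMIs of the 8 genes per cell); bars are exact 95% intervals. The fibrosis library has fewer cells in the highest class of both groupings (5.46% in each), and in the right panel its bar is lower at 9 to 11 marker UMIs (5.83 against 11.4) and higher at 12 or more (24.7 against 20.7).

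The share of cells with a UMI after thinning to 1000 UMIs is given for Fbln2, Nrg1 and Atp13a3 only. In portal vessel-like cells the intervals of the 2 libraries overlapped for both genes shown. In portal vessel-like cells Fbln2 was detected in 65.5% (54.6 to 75.4) of normal and 83.6% (71.9 to 91.9) of fibrosis cells, and Nrg1 in 62.1% (51.0 to 72.3) and 45.9% (33.1 to 59.2), against 0.335% and 0.746% of B cells for Fbln2 and 0.335% and 0.249% for Nrg1. In portal-side zone 1-like cells Nrg1 was detected in 27.6% (22.7 to 33.0) and 5.16% (2.25 to 9.92), and Atp13a3 in 49.3% (43.6 to 55.1) and 22.6% (16.3 to 29.98), where B cells had 8.54% and 11.2%. Median depths before thinning were 7079 and 7678 UMIs in portal vessel-like, 6238 and 7467 in portal-side zone 1-like and 2776 and 2233 in B cells. The 3 richest cells held between 11.1% and 19.7% of the UMIs of any of the 8 genes in portal vessel-like cells, and in fibrosis portal-side zone 1-like cells between 9.09% (Ly6a) and 47.1% (Npr3).

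Markers of other cell types also differed between the portal groups of the libraries. The 20 mesenchymal markers summed to 2.84 per 10000 in normal portal vessel-like cells (15 detected, with Col1a1 and Pdgfra at 0; 0 to 10.1 per cell) and 9.16 in those of the fibrosis library (18 detected; 0 to 33.6). Over all ECs that list was at 2.90 and 9.14, so for this list the portal groups did not stand out. The 11 Kupffer cell markers, all detected, summed to 3.91 (0 to 9.37) and 13.5 (3.91 to 30.2). The 16 monocyte and macrophage markers summed to 7.85 (11 detected, Cx3cr1 and Trem2 at 0; 0 to 25.6) and 12.3 (15 detected; 0 to 41.5), and the hepatocyte markers ran from 47.3 to 319.7 per normal and 6.71 to 40.4 per fibrosis cell. Over all ECs the monocyte and macrophage list was at 2.54 and 6.38, below its portal vessel-like values in both libraries. It holds Ace and Plac8, which were among the 10 leading genes of a portal vessel sub-cluster with the libraries clustered together. Its sum in portal groups is therefore not read as stray RNA. Portal-side zone 1-like cells, where all 8 genes were lower, differed likewise. Their 13 hepatocyte markers summed to 167 (56.3 to 499.4 per cell) in normal liver and 16.1 (0 to 55.7) in fibrosis, with all 13 detected in each. The mesenchymal list was at 2.37 (19 of 20 detected, Pdgfrb at 0; 0 to 14.2) and 9.06 (20 detected; 0 to 24.3), the Kupffer list at 4.86 (0 to 42.0) and 15.7 (4.99 to 229.1) with all 11 detected, and the monocyte and macrophage list at 5.67 (15 detected; 0 to 29.0) and 7.77 (16 detected; 0 to 45.8). The erythroid list was at 2.70 and 0.357 in portal vessel-like cells and at 18.6 and 0.451 in portal-side zone 1-like cells. In the latter the medians per cell were 3.01 and 0, and the richest normal cell was at 2403. The part of these RNAs in the levels of the 8 genes was not tested. Kupffer cells themselves held the 8 genes at 3.66 and 2.40 in sum and monocytes and macrophages at 3.95 and 3.50, both far below the portal groups. Outside ECs, Ly6a was at 9.81 and 5.18 in dendritic cells, 7.503 and 2.73 in plasma cells and 2.61 and 1.94 in mesenchymal cells. Sdc1 was at 2.49 and 0.882 in plasma cells and at 2.58 in normal hepatocyte-like cells, and Atp13a3 was at 1.39 and 1.67 in cholangiocytes. Mesenchymal cells held Fbln2 at 1.86 and 0.934 and Npr3 at 0.626 and 0.791.

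Other genes of large vessels were counted in the same groups. Of 20 large-vessel genes that took no part in the naming, 14 passed the minimum level in portal vessel-like cells. In the fibrosis library 6 of these were higher beyond counting error, 2 were lower and 6 had intervals that included 1, with a median ratio of 1.25, where 19.4% of all genes were higher and 13.3% lower. Ly6c1 (1.76, 1.32 to 2.34) and Anxa2 (1.73, 1.45 to 2.08), a membrane-binding annexin gene, were at the upper end. Il33, an alarmin gene (0.604, 0.389 to 0.920), and S100a6, a calcium-binding protein gene (0.774, 0.440 to 1.33), had the lowest ratios, and the other gene that was lower beyond counting error was Vwf, the gene of von Willebrand factor (0.832, 0.744 to 0.929). Within portal-side zone 1-like cells 9 passed, of which 2 were higher and 6 lower, with a median ratio of 0.638, where 28.5% of all genes were higher and 20.3% lower. Of 36 relatives and partners of the 8 genes, 35 were listed and 13 passed the minimum level in portal vessel-like cells, 5 higher, 3 lower and 5 with intervals that included 1. Fbln5 (0.566) and Adgre5 (0.743) were the lowest and Sdc3 (2.04) and Ly6c1 the highest. Of the same list 12 passed in portal-side zone 1-like cells, 7 higher and 4 lower, with a median ratio of 1.23, beside the same 28.5% and 20.3% of all genes.

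The 8 genes varied together across cell groups. Over 37 groups of at least 30 cells (endothelial zones and other classes of both libraries, on log2 of UMIs per 10000 plus 0.1), Gja5 and Nrg1 followed the mean of the 8 most closely (Pearson r of 0.971 and 0.970), and Ly6a least (0.761). Between single genes r ran from 0.359 (Ly6a with Sdc1) to 0.967 (Nrg1 with Gja5). Among 4056 genes with at least 0.5 UMIs per 10000 in normal portal vessel-like cells, those most like the mean apart from the 8 were Ly6c1 (0.908), Cyp1a1, a xenobiotic-metabolising oxidase gene (0.902), Sncg, the gamma-synuclein gene (0.900), Tcf15, a helix-loop-helix transcription factor gene (0.900), and Syt15, a synaptotagmin gene (0.899). These points share 2 libraries and their free RNA, so r is a description. The minimum level was set in normal portal vessel-like cells only, which favours genes that are lower in the fibrosis library. Sncg and Tcf15 were under it in those of the fibrosis library. In portal vessel-like cells Ly6c1 and Cyp1a1 were higher in the fibrosis library (Cyp1a1 4.31 and 7.46), while Sncg (1.06 and 0.436), Tcf15 (0.512 and 0.198) and Syt15 (1.23 and 0.575) were lower. In portal-side zone 1-like cells the 5 genes were at 0.534, 0.0836, 0.196, 0.0971 and 0.150 times their normal levels, in the order named. The portal-side groups of both libraries were among the 37 groups by which these genes were chosen. A difference like that of the 8 genes there was therefore favoured by the choice and is not read as a result.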

How the data were processed

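NPCs were profiled by scRNA-seq (10x Chromium version 3, 3′ counting, HiSeq 3000), 1 library per mouse. The authors aligned reads to mm10 with Cell Ranger 3.0.1, kept uniquely mapped reads and deposited UMI counts per gene and cell without normalization (44062632 UMIs in 8130 normal cells and 53288463 in 6437 fibrosis cells). The study's methods state that doublets were removed by Scrublet. Scrublet scores at an expected rate of 0.06 called 3 normal and 0 fibrosis cells here, and doublets were kept.

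Cells under 10% mitochondrial UMIs and over 200 genes were kept. Analysis used Python 3.11.15, scipy 1.17.1, scanpy 1.11.5, pandas 2.3.3, leidenalg 0.10.2, numpy 2.4.6, igraph 0.11.9 and matplotlib 3.10.9. Each library, and then its ECs, was clustered by Leiden (2000 variable genes, 10 components, 20 neighbours, resolution 0.8) without the 8 genes. A sub-cluster took the zone whose markers had the highest mean log2 fold over the other ECs, if this was at least 0.5 with at least 3 markers and 50% of the list raised. A sub-cluster whose median UMI count was below that of all ECs divided by 3 was named only with a marker of that zone among its 10 leading genes, and a zone 1 sub-cluster that also had portal markers raised was called portal-side. This scoring was set after cluster values had been seen. The members, marker lists, gene lists and tests were chosen with earlier results of these data known. Some alternatives (the 8 genes among the variable genes, the 5% mitochondrial limit, and removal of the 5% highest doublet scores) used only the cells already called ECs.

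Levels are a group's UMIs of a gene, scaled to 10000 UMIs, with exact Poisson intervals, ratios have exact conditional binomial intervals and shares exact Clopper-Pearson intervals, all at 95%. With 1 library per condition no test was made and cells were not used as replicates. The minimum level for counts of genes was 0.5 UMIs per 10000 over both libraries pooled. A zone missing from a library took the other library's level in the division of the change. Named genes are the 8 genes, the 5 genes most like them, the 2 lowest and 2 highest of each list and fixed partners; Pecam1, Cdh5, Vwf, Rspo3, Stab2, Clec4g, Alb, Hbegf, Adgrg1, Gjb1, Gjb2, Gjc1, Ly6e, Eln and the naming genes were named after their values were seen. On simulated portal vessel-like libraries of 4139 genes, 100 of 100 genes lowered 4 times were called, as were 5 of 3939 genes left as they were, and the true ratio lay inside 96.0% of intervals. The simulated counts were Poisson, without variation between cells or animals. They check the calculation and cannot show that the intervals are wide enough for these data. Gene positions come from GENCODE on GRCm38, the mm10 build, and the promoter stretch from RefSeq.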

Additional observations from a re-analysis of the deposited data

Results flagged for a closer look

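Atp13a3, Gja5 and Fbln2 stood out because their ratios of fibrosis over normal pointed in opposite directions in the neighbouring portal groups. Atp13a3 was at 1.095 times its normal level in portal vessel-like and at 0.2337 times in portal-side zone 1-like cells. Gja5 was at 1.239 and 0.5308 times. Fbln2 was at 1.638 and 0.4341 times. The Atp13a3 ratio in portal vessel-like cells went below 1 in 6 of 13 alternatives (0.582 to 0.9999) and that of Gja5 in 2 (0.820 and 0.955), so the opposite directions of these genes depended on these settings, while Fbln2 stayed above 1 in all 13. None of these differences was tested, since each group is 1 library, and the portal-side groups of the 2 libraries also differed in Stab2 (2.17 and 5.92 per 10000) and Vwf (3.47 and 1.37).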

How the results depend on the processing

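No paired analysis was possible because each condition is 1 mouse, and leaving out a replicate was not possible for the same reason. The alternatives that counted the shallow sub-cluster as portal or joined both portal groups were chosen after seeing the data. The portal vessel share of ECs (3.88% normal, 3.67% fibrosis) became 17.18% and 5.90% at resolution 0.4, 8.61% and 6.44% at resolution 1.5, 17.22% and 9.57% with the libraries clustered together, 16.2% and 13.3% with zones from each cell's marker UMIs, and 22.5% and 17.5% under a mitochondrial limit of 5%, which left 454 and 246 ECs. It became 8.83% (normal) without the highest doublet scores, 6.56% (fibrosis) with the 8 genes among the variable genes, 12.6% (fibrosis) with the shallow sub-cluster, and 17.45% and 13% with both portal groups joined. In the same order of settings, the ratio of the sum in portal vessel-like cells (1.03) became 1.17 at resolution 0.4, 0.877 by marker UMIs, 1.13 at the 5% limit, 1.145 without high doublet scores, 0.903 with the 8 genes included, 0.680 with the shallow sub-cluster and 0.677 with both groups, and 1.149 as UMIs per cell. The part within groups (−3.27) turned positive at resolution 0.4 (2.40), with libraries together (1.12), at the 5% limit (3.93) and as UMIs per cell (0.283). It was −1.16 at resolution 1.5, −2.58 by marker UMIs, −5.80 with the 8 genes included, −1.39 without high doublet scores, −2.04 as a mean over cells, −3.58 in cells of at least 3000 UMIs, −5.66 with the shallow sub-cluster and −2.91 with both groups. Atp13a3 in portal vessel-like cells (1.10) went below 1 at resolution 1.5 (0.984), by marker UMIs (0.832), with the 8 genes included (0.9996), at the 5% limit (0.9999), with the shallow sub-cluster (0.732) and with both groups (0.582). Gja5 (1.24) did so in the latter 2 (0.820 and 0.955). In all 13 alternatives Adgrg6, Nrg1 and Sdc1 stayed below 1 (0.461 to 0.995) and Fbln2 above 1 (1.03 to 2.37), while Npr3 (0.915) ran from 0.592 to 1.661 and was below 1 in 6, Gja5 reached 1.901, and Ly6a (0.943) ran from 0.622 to 1.05 and was below 1 in 12. As UMIs per cell, the intervals of the portal vessel-like ratios of Adgrg6 (0.867 to 1.07) and Nrg1 (0.839 to 1.08) included 1. Genes lower by 2 times or more numbered 186 of 4139 (4.49%), 829 of 9166 (9.04%) with a minimum level of 0.1 and 2453 of 13875 (17.7%) with none. The causes were not tested. Groups of 61 and 87 cells limit the precision of rare genes: 3 UMIs, the limit used for a count of 0, make 0.0595 per 10000 in fibrosis portal vessel-like cells.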
